A study of Rattus norvegicus with 6 samples.

Results

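DNA replication and S-phase genes are those whose products load helicases onto origins, unwind and copy the DNA, make its building blocks, repackage the new chromatin and guard the moving fork. The set examined here holds 56 rat genes chosen by symbol for these roles, and 51 of them had a probe set that carries their symbol alone on the array, out of 14506 genes measured. The 5 others (Mcm3, Mcm4, Pole2, Chaf1a and E2f2) were not analysed here. Rrm1 and Rrm2 had more than 1 probe set, and the one with the highest mean over the 6 arrays was used for every gene. No gene was removed for a low value.

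The RNA came from neurospheres, floating clusters grown from the dissociated carotid bodies of adult rats. The carotid body is a small organ at the carotid artery that senses blood oxygen. Of 6 Affymetrix arrays, 3 are labelled differentiated (no mitogens, 3% oxygen) and 3 undifferentiated (EGF, ET-1, FGF and IGF-1 in the medium, normal oxygen), all grown for 10 days in neural crest medium in low-attachment wells, with no genetic change named. Mitogens and oxygen changed together, so their parts in any difference cannot be told apart. The sources used here do not give strain, sex, the number of animals, or whether spheres were pooled. They also do not say whether a group's arrays stand for separate cultures, so its spread may be technical, and p-values measure no more than that spread. The study set neuron-rich spheres against spheres rich in undifferentiated cells.

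One check went against the labels. Th, tyrosine hydroxylase, which limits catecholamine synthesis in glomus cells (the oxygen sensors of the organ), read 10.73, 11.32 and 10.65 in the arrays labelled differentiated, against 13.76, 13.59 and 13.91 in those labelled undifferentiated. Its log2 difference was -2.86 ± 0.18 (SE, limma adjusted p = 5.09e-07), and 13 of 13 glomus cell markers fell. Of the other label checks, Tubb3, a neuronal tubulin, read 8.30, 8.27 and 7.92 in the arrays labelled differentiated, against 8.24, 8.12 and 8.14 in those labelled undifferentiated (adjusted p = 0.995). Gfap, a glial filament, differed by 0.19 ± 0.14 (adjusted p = 0.373) and Nes, a progenitor filament, by 0.65 ± 0.23 (adjusted p = 0.0542), and Mki67 was not analysed here. Nes passed without differentiated replicate 2 (0.88, adjusted p = 0.00812) or undifferentiated replicate 1 (0.82, adjusted p = 0.0311), and with a replicate block (0.000308), quantile normalization (0.0367) or dim genes left out (0.048). Over the whole lists, of 7 neuronal genes Nefl, a neurofilament, rose by 1.21 ± 0.26 and Map2, a dendritic microtubule protein, fell by 0.85 ± 0.20 (adjusted p = 0.0039 and 0.00666). The neuronal shares, 14.3% higher and 14.3% lower, lay near those of all genes, 14.7% and 14.9%. Of 4 progenitor genes Prrx1, a mesenchymal transcription factor, rose by 1.77 ± 0.11 (adjusted p = 4.5e-07). These 3 were named after their values were seen, and the other genes of both lists did not pass. Groups are therefore named by their labels throughout, and each difference is labelled differentiated minus labelled undifferentiated, on the log2 scale. Whether the labels of the groups were exchanged was not tested, and an exchange would turn the sign of every difference given here. Array medians lay between 5.05 and 5.13, and no array stood apart from its group: Pearson's r across all probe sets was 0.9857 to 0.9927 within groups and 0.959 to 0.9696 between them.

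In eukaryotic cells a ring of the MCM2 to MCM7 proteins is loaded onto origins in G1 by ORC, CDC6 and CDT1, and in S phase CDC45 and the GINS complex turn that ring into the working helicase. Primase and the alpha, delta and epsilon polymerases then copy both strands. The PCNA clamp holds the delta and epsilon polymerases, while ribonucleotide reductase and thymidylate synthase supply deoxynucleotides. Many of these genes are transcribed at the G1 to S transition by E2F factors, so their messages are commonly read as a sign of cycling cells. The adult carotid body itself divides little until long hypoxia stimulates it.

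Replication genes were higher in the arrays labelled differentiated, whose medium held no mitogens per the labels. Of the 51 measured genes 32 rose and 0 fell at a limma adjusted p under 0.05 (62.7% higher), where 14.7% of all genes were called higher and 14.9% lower. Their median log2 difference was 0.47, beside 0.06 over all genes, and the 51 values ran from -0.18 for Slbp to 1.76 for Rrm2. The difference lay above 0 in 48 genes (94.1%), against 57.6% of all genes. It was over 1 in 5 (Rrm2, Hells, Uhrf1, Mcm5 and Mcm6), where 466 of all 14506 genes had a difference over 1. In 36 genes all 3 arrays labelled differentiated lay above all 3 labelled undifferentiated, and in 0 all lay below, where 22.5% and 19.8% of all genes had groups so separated.

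**Figure D1:**
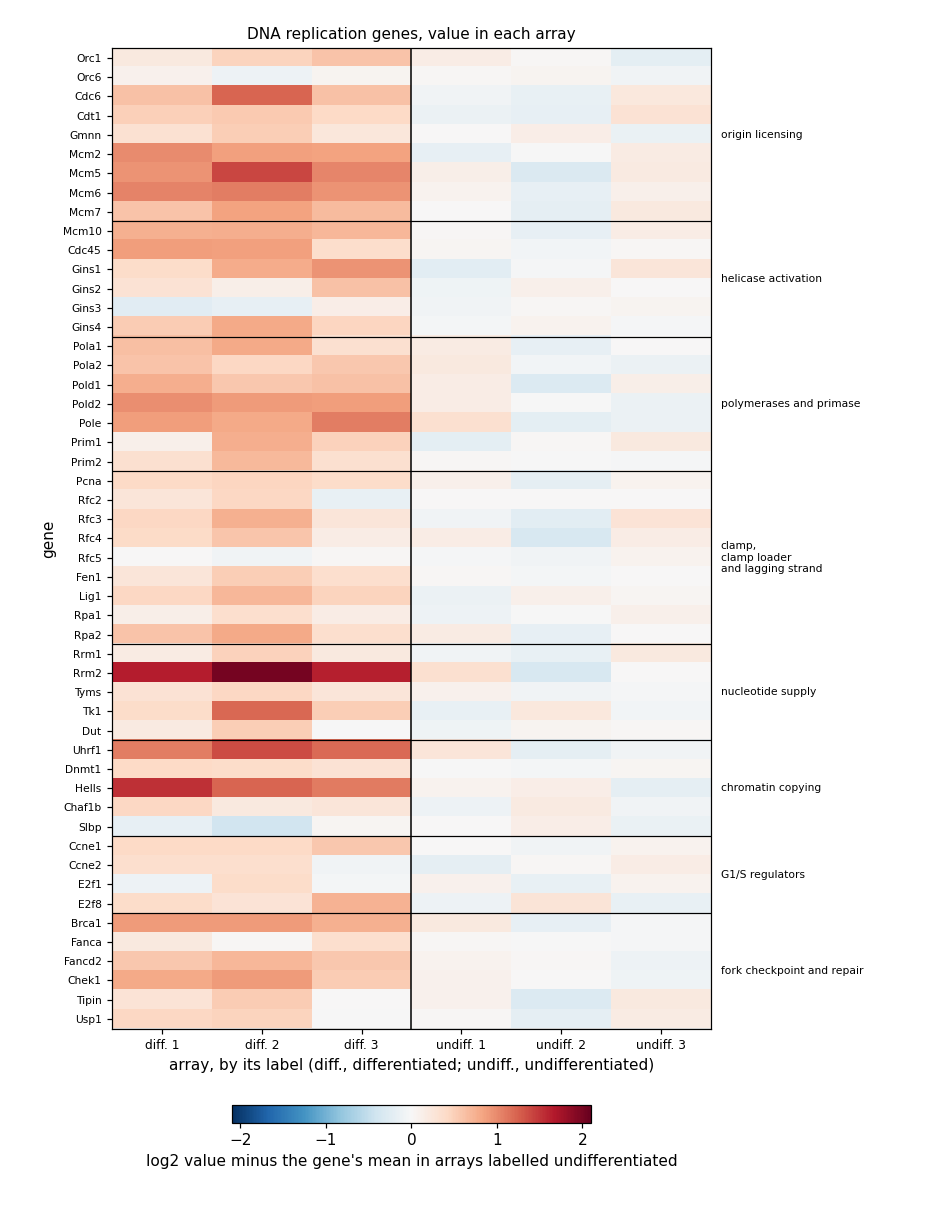
Value of each of the 51 replication genes in each array, as the log2 value minus that gene's mean over the 3 arrays labelled undifferentiated (colour), with genes in rows by step of replication and arrays in columns. Rrm2 is darkest in all 3 arrays labelled differentiated, Orc6, Gins3, Rfc5 and Slbp are near 0 or below it, and 36 genes are higher in all 3 arrays labelled differentiated than in any array labelled undifferentiated.

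These are bulk samples, so more cells of a dividing type and more RNA per cell cannot be told apart. Some markers of other cell types also differed between the groups, and their part in the result was not tested. For comparison, 14.7% of all genes were called higher and 14.9% lower. The glia and endothelial lists, each with 14.3% higher and 14.3% lower, lay near those shares. All 13 glomus cell markers fell (mean log2 value over the list 7.51 to 7.85 in the arrays labelled differentiated and 10.37 to 10.51 in those labelled undifferentiated). All 9 fibroblast markers rose (11.28 to 11.35 in the arrays labelled differentiated and 10.06 to 10.41 in those labelled undifferentiated), among them Pdgfra, a growth factor receptor of mesenchymal cells, by 1.46 ± 0.10. Of 9 macrophage markers 3 rose and 1 fell (7.33 to 8.04 in the arrays labelled differentiated and 7.04 to 7.61 in those labelled undifferentiated), of 7 glia markers 1 rose and 1 fell (6.58 to 7.15 in the arrays labelled differentiated and 6.83 to 7.05 in those labelled undifferentiated), of 7 endothelial markers 1 rose and 1 fell (4.80 to 4.93 in the arrays labelled differentiated and 5.02 to 5.06 in those labelled undifferentiated), and of 6 smooth muscle markers 2 rose and 0 fell (6.16 to 6.37 in the arrays labelled differentiated and 5.77 to 5.84 in those labelled undifferentiated). Array values have no true 0, so none of these markers can be called absent.

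Origin licensing had the highest median of the 8 steps, at 0.69, and 7 of its 9 measured genes rose. Without undifferentiated replicate 2 its median was 0.60, below the 0.63 of helicase activation. Mcm6, a subunit of the helicase ring, read 7.33, 7.37 and 7.24 in the arrays labelled differentiated, against 6.37, 6.11 and 6.40 in those labelled undifferentiated. Mcm2, another subunit of the ring, read 7.66, 7.52 and 7.51 in the arrays labelled differentiated, against 6.49, 6.65 and 6.84 in those labelled undifferentiated. The groups did not overlap in either gene, and the lowest array labelled differentiated lay above the highest one labelled undifferentiated. Mcm6 rose by 1.02 ± 0.11 and Mcm2 by 0.90 ± 0.11 (limma adjusted p = 4.64e-05 and 0.000126). The 2 other measured subunits rose as well, Mcm5 by 1.12 ± 0.16 (adjusted p = 0.000329), a 2.17-fold higher signal, and Mcm7 by 0.69 ± 0.13 (adjusted p = 0.00142). Cdc6, which loads the ring, rose by 0.82 ± 0.18 (adjusted p = 0.00545).

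The partner and the brake of loading rose as well. Cdt1, the other loading factor, rose by 0.49 ± 0.14 (limma adjusted p = 0.0229) and Gmnn, geminin, which binds CDT1 and blocks reloading, by 0.35 ± 0.12 (adjusted p = 0.0493). Cdt1 missed the threshold when replicate 1 or 2 of either group was left out (adjusted p = 0.0569 to 0.0888). Gmnn missed it in 7 of 16 alternatives. Among these were leaving out replicate 1 or 2 labelled differentiated and replicate 1 or 3 labelled undifferentiated (0.0874 to 0.177). Orc1, the largest subunit of the origin recognition complex, differed by 0.43 ± 0.16 (adjusted p = 0.067) and passed only without differentiated replicate 1 (0.54, adjusted p = 0.0417). Orc6, its smallest subunit, read 5.78, 5.59 and 5.75 in the arrays labelled differentiated, against 5.71, 5.74 and 5.61 in those labelled undifferentiated. Its groups overlapped, and the difference of 0.02 ± 0.12 (adjusted p = 0.937) turned below 0 with median centring.

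The promoters of the helicase ring are shown because its 4 measured subunits rose together. Each line gives the 250 bases before the annotated start, from RefSeq on the GRCr8 assembly, read 5′ to 3′ on the gene's strand. Capitals mark matches to the E2F letters TTTGGCGC, TTTCCCGC, TTTCGCGC or TTTGCCGC on either strand, where matches on the 2 strands can overlap in one run of capitals.
Mcm2 (chr4:122918095-122918344, - strand): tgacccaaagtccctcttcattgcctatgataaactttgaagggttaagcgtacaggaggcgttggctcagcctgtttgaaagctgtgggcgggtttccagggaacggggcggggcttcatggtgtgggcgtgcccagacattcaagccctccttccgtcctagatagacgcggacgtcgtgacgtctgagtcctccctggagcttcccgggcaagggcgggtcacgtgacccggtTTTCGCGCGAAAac
Mcm5 (chr19:13488563-13488812, + strand): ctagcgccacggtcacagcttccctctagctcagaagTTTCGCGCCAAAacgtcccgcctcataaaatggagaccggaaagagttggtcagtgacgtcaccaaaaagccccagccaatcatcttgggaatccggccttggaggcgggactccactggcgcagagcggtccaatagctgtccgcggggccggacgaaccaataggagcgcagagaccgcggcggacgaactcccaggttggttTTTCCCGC
Mcm6 (chr13:42404353-42404602, - strand): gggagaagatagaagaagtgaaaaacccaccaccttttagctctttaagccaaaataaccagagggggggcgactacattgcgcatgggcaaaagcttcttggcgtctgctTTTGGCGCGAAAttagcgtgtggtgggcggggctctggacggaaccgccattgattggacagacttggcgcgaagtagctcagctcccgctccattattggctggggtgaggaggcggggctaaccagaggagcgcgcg
Mcm7 (chr12:22163179-22163428, - strand): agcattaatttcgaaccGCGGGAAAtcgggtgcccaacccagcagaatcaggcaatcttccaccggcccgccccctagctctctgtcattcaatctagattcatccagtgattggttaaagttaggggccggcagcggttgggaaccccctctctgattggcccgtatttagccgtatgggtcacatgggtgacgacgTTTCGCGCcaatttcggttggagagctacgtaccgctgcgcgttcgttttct
All 4 windows shown held at least 1 match. Mcm3, a ring subunit not measured here, also had an entry in the promoter table and held 0 matches. The Mcm2 run ends next to the start, Mcm5 has a run far from the start and a match that ends at it, and Mcm7 has a pair well apart. Over the whole set, 47 of the 56 genes had an entry in the promoter table and 14 of them (29.8%) held a match. The share was 1.91% of the 27457 genes with an entry, and 2.6% of the 11968 genes with an entry that are on the array. Among genes that rose it was 10 of 29 and among measured genes that did not pass 4 of 15, so that matches were found on both sides of the threshold. The CCAAT box, searched as CCAAT on both strands, was found in 24 of the 47 (51.1%), in 36.1% of all genes and in 36.2% of those on the array. The CHR motif, searched as TTTGAA on both strands, was found in 4 (8.51%), in 17.2% of all genes and in 14.3% of those on the array. No motif searched contains the letters of another. A match is a description of the letters and not a site shown to be bound, and no match says only that the letters are not in this window.

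Helicase activation rose in 4 of 6 genes, with a median of 0.65. Mcm10, which helps to start the helicase, read 5.55, 5.57 and 5.50 in the arrays labelled differentiated, against 4.84, 4.63 and 4.97 in those labelled undifferentiated. Cdc45, which joins the ring to make it active, read 6.06, 6.04 and 5.55 in the arrays labelled differentiated, against 5.22, 5.12 and 5.20 in those labelled undifferentiated. Neither gene had overlapping groups, though differentiated replicate 3 was the lowest of its group for Cdc45. Mcm10 rose by 0.73 ± 0.13 and Cdc45 by 0.70 ± 0.15 (limma adjusted p = 0.0015 and 0.00467).

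The 4 GINS subunits, which form one complex, did not share one value. Gins1 rose by 0.71 ± 0.19 (limma adjusted p = 0.0146) and Gins4 by 0.59 ± 0.14 (adjusted p = 0.00657), while Gins2 differed by 0.35 ± 0.15 (adjusted p = 0.122). Gins3 read 5.52, 5.59 and 5.90 in the arrays labelled differentiated, against 5.69, 5.78 and 5.81 in those labelled undifferentiated. Its groups overlapped, with a difference of -0.09 ± 0.13 (adjusted p = 0.671), and the difference between subunits was not tested. Gins1 was dim, at the 22.6 percentile of probe set means, and missed the threshold without differentiated replicate 3 (adjusted p = 0.0611) or undifferentiated replicate 1 (0.0643). Gins2 passed without differentiated replicate 2 (0.46, adjusted p = 0.0491). The promoters of the subunit with the largest rise and of the one that did not rise are set side by side, with the same E2F letters in capitals.
Gins1 (chr3:160184670-160184919, + strand): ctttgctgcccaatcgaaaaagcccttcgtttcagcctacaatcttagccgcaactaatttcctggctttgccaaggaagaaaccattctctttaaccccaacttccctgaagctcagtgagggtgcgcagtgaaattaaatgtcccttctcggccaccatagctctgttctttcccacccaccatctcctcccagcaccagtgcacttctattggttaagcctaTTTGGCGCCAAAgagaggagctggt
Gins3 (chr19:9434680-9434929, - strand): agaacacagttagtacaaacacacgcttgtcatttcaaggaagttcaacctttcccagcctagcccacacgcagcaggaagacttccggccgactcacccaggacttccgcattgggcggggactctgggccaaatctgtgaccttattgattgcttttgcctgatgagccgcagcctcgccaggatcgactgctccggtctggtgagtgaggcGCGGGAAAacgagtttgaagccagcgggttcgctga
Both windows hold E2F letters close to the start. The genes' differences were 0.71 and -0.09, and a link between letters and differences was not tested. The Gins1 run holds matches on both strands that overlap, and the Gins3 window holds a single match.

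**Figure D2:**
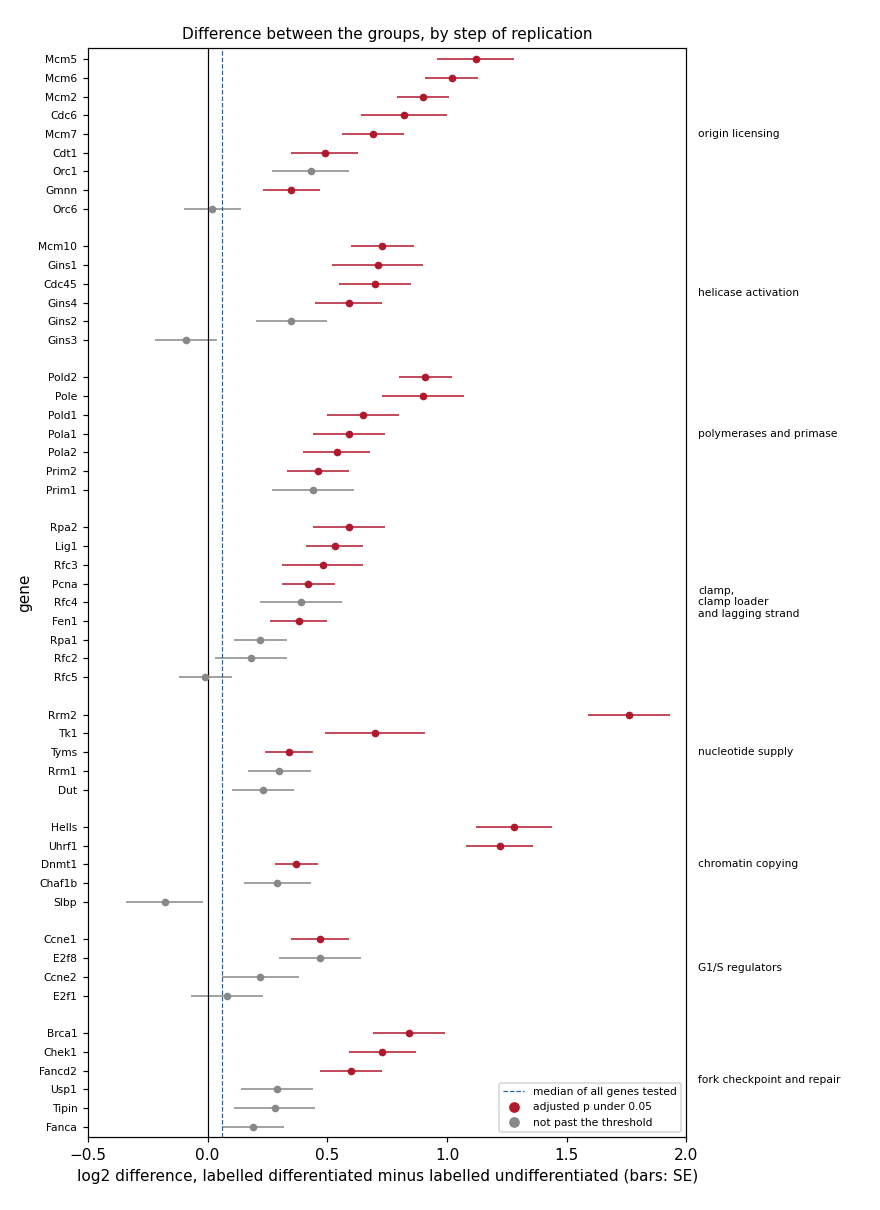
Log2 difference of each replication gene, labelled differentiated minus labelled undifferentiated (points; bars are the SE of the limma fit over 6 arrays), with genes in rows by step, red where the adjusted p was under 0.05. The 32 red genes all lie right of 0 and of the dashed median of all genes at 0.06, and Gins3, Rfc5 and Slbp are the genes left of 0.

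Polymerase and primase genes rose in 6 of 7, with a median of 0.59. Pold2, the accessory subunit of polymerase delta, read 6.91, 6.82 and 6.81 in the arrays labelled differentiated, against 6.08, 5.92 and 5.80 in those labelled undifferentiated. Pole, the catalytic subunit of polymerase epsilon, which makes most of the leading strand, read 5.45, 5.37 and 5.65 in the arrays labelled differentiated, against 4.92, 4.37 and 4.46 in those labelled undifferentiated. Both had separate groups, and undifferentiated replicate 1 was the highest of its group in each. Pold2 rose by 0.91 ± 0.11 and Pole by 0.90 ± 0.17 (limma adjusted p = 0.000104 and 0.00162). Pold1, the catalytic subunit of polymerase delta, rose by 0.65 ± 0.15 (adjusted p = 0.00552).

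Of the 4 genes whose products start each strand 3 rose. Pola1 and Pola2, of polymerase alpha, rose by 0.59 ± 0.15 and 0.54 ± 0.14, and Prim2, the large primase subunit, by 0.46 ± 0.13 (limma adjusted p = 0.0127, 0.0154 and 0.0221). Prim1, the catalytic primase subunit, read 6.20, 6.86 and 6.58 in the arrays labelled differentiated, against 5.89, 6.12 and 6.31 in those labelled undifferentiated. The groups of Prim1 overlapped and its difference of 0.44 ± 0.17 missed the threshold (adjusted p = 0.0785), though it passed without differentiated replicate 1 (0.62, adjusted p = 0.0163). Calls in this trio were not firm. Pola1 missed the threshold without undifferentiated replicate 2 (adjusted p = 0.0533) and Pola2 without differentiated replicate 1 (0.0523) or undifferentiated replicate 3 (0.0681). Prim2 missed it without differentiated replicate 2 or any array labelled undifferentiated (0.0554 to 0.0803).

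The clamp, its loader and the lagging-strand enzymes followed, with 5 of 9 genes higher and a median of 0.39. Lig1, the ligase that joins Okazaki fragments, read 6.72, 6.98 and 6.76 in the arrays labelled differentiated, against 6.16, 6.39 and 6.33 in those labelled undifferentiated. Pcna, the sliding clamp and a common marker of proliferation, read 7.86, 7.89 and 7.83 in the arrays labelled differentiated, against 7.55, 7.25 and 7.51 in those labelled undifferentiated. In both genes the groups were separate, and the Pcna arrays labelled differentiated lay within 0.06 of each other. Lig1 rose by 0.53 ± 0.12 and Pcna by 0.42 ± 0.11, a 1.34-fold higher signal (limma adjusted p = 0.00513 and 0.0103).

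Among the 4 measured subunits of the clamp loader only Rfc3 passed, by 0.48 ± 0.17 (limma adjusted p = 0.0492), although its groups overlapped. Rfc3 missed the threshold in 9 of 16 alternatives. These included leaving out replicate 1 or 2 of either group (0.0905 to 0.17) and a replicate block (0.0554). Rfc4 differed by 0.39 ± 0.17 and Rfc2 by 0.18 ± 0.15 (adjusted p = 0.123 and 0.408). Rfc5 read 5.95, 5.86 and 5.97 in the arrays labelled differentiated, against 5.92, 5.87 and 6.02 in those labelled undifferentiated. These arrays were interleaved, and the difference of -0.01 ± 0.11 (adjusted p = 0.949) changed sign with quantile normalization. Fen1, which trims the flaps between fragments, rose by 0.38 ± 0.12 (adjusted p = 0.0354). Fen1 missed the threshold in 8 of 16 alternatives. Among these were leaving out any array other than differentiated replicate 1 (0.0767 to 0.115) and a replicate block (0.0539). Of the single-strand binding protein, Rpa2 rose by 0.59 ± 0.15 (adjusted p = 0.0128, and 0.0527 without undifferentiated replicate 2), and Rpa1 differed by 0.22 ± 0.11 (adjusted p = 0.173).

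Nucleotide supply held the largest single difference. Rrm2, the small subunit of ribonucleotide reductase, whose level limits the enzyme in S phase, read 8.34, 8.70 and 8.32 in the arrays labelled differentiated, against 7.03, 6.35 and 6.69 in those labelled undifferentiated. Every array labelled differentiated lay over 1 log2 unit above every array labelled undifferentiated. Rrm2 rose by 1.76 ± 0.17, a 3.4-fold higher signal (limma adjusted p = 1.42e-05), and had the 61st largest rise of all 14506 genes. Its other probe set, which carries the same symbol, differed by 1.72 (limma adjusted p over all probe sets = 0.000153). Whether these probe sets share probes or read a near-identical copy is not known here. Rrm1, the large subunit of the same enzyme, differed by 0.30 ± 0.13 (adjusted p = 0.109) and passed without undifferentiated replicate 3 (0.40, adjusted p = 0.0453). The difference between the subunits was not tested.

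Of the 3 genes of thymidine nucleotides Tk1 and Tyms rose. Tk1, the thymidine salvage kinase of S phase, read 5.09, 5.90 and 5.22 in the arrays labelled differentiated, against 4.54, 4.92 and 4.64 in those labelled undifferentiated. Dut, which keeps uracil out of DNA by breaking down dUTP, read 7.31, 7.64 and 7.11 in the arrays labelled differentiated, against 7.03, 7.17 and 7.15 in those labelled undifferentiated. Differentiated replicate 2 was the highest array for both genes, and only for Dut did the groups overlap. Tk1 rose by 0.70 ± 0.21 (limma adjusted p = 0.0245), by 0.45 without differentiated replicate 2, where it missed the threshold (adjusted p = 0.0633), as it did without undifferentiated replicate 1 (0.085) or 3 (0.0768). In all, Tk1 missed the threshold in 4 of 16 alternatives. Dut differed by 0.23 ± 0.13 (adjusted p = 0.24). Tyms, thymidylate synthase, rose by 0.34 ± 0.10 (adjusted p = 0.0259). Tyms missed the threshold in 5 of 16 alternatives. Among these were leaving out replicate 1 or 2 labelled differentiated or replicate 2 or 3 labelled undifferentiated (0.0504 to 0.0829).

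**Figure D3:**
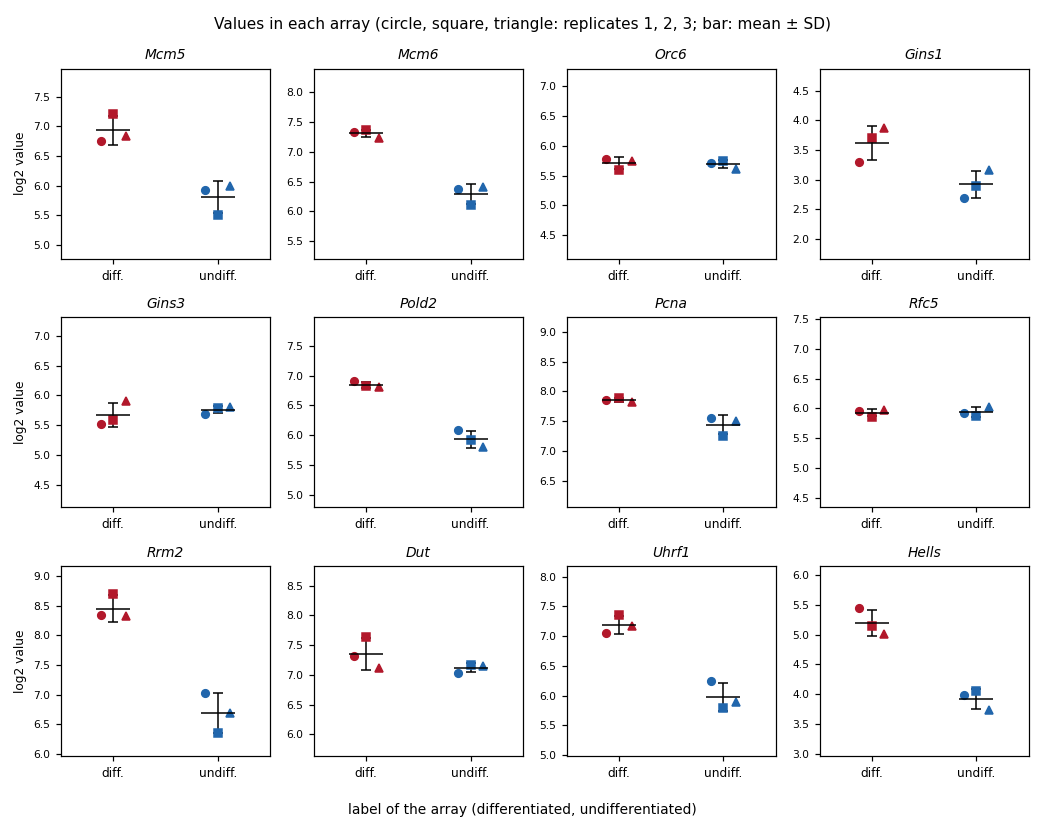
Log2 value of 12 replication genes in each of the 6 arrays (markers by replicate number, with mean ± SD, n = 3 per group), arrays labelled differentiated on the left; each panel spans the same number of log2 units. Mcm5, Mcm6, Gins1, Pold2, Pcna, Rrm2, Uhrf1 and Hells have separate groups, and Orc6, Gins3, Rfc5 and Dut have overlapping ones.

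Chromatin copying was divided, with 3 of 5 genes higher and a median of 0.37. Uhrf1, which recognises half-methylated DNA behind the fork, read 7.06, 7.35 and 7.17 in the arrays labelled differentiated, against 6.24, 5.79 and 5.90 in those labelled undifferentiated. Hells, a chromatin remodeller needed for DNA methylation, read 5.45, 5.15 and 5.01 in the arrays labelled differentiated, against 3.99, 4.06 and 3.73 in those labelled undifferentiated. For both genes the lowest array labelled differentiated lay well above the highest one labelled undifferentiated. Uhrf1 rose by 1.22 ± 0.14 and Hells by 1.28 ± 0.16, 2.32-fold and 2.42-fold higher signals (limma adjusted p = 5.4e-05 and 0.000112). Dnmt1, the methyltransferase that UHRF1 brings to the fork, rose by 0.37 ± 0.09 (adjusted p = 0.0106), with small spread in both groups (SD 0.05 and 0.04).

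The other 2 measured genes of this step, Chaf1b and Slbp, did not pass. Chaf1b, a subunit of the chromatin assembly factor, differed by 0.29 ± 0.14 (limma adjusted p = 0.169), with separate groups. Slbp, which binds the stem-loop of replication histone messages, read 3.64, 3.40 and 3.85 in the arrays labelled differentiated, against 3.81, 3.95 and 3.67 in those labelled undifferentiated. Its groups overlapped, the difference was -0.18 ± 0.16 (adjusted p = 0.462), and it was dim, at the 28.7 percentile of probe set means. Hells had the second largest rise of the whole set, and the 250 bases before its start follow, with the same E2F letters in capitals.
Hells (chr1:246113879-246114128, + strand): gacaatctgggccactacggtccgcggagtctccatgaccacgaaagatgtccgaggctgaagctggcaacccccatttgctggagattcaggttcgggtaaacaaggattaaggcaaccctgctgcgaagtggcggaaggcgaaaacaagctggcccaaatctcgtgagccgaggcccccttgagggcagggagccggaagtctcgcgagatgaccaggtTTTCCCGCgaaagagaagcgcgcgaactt
Its only match lies near the start.

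Regulators of the G1 to S transition had the smallest share of rises of the 8 steps, 1 of 4 measured genes. That is 25%, where 14.7% of all genes were called higher, and with 4 genes a single call decides it. Their median was 0.34, and that of nucleotide supply was also 0.34. Ccne1, cyclin E1, the partner of CDK2 at S-phase entry, read 5.70, 5.70 and 5.84 in the arrays labelled differentiated, against 5.28, 5.20 and 5.35 in those labelled undifferentiated. The groups were separate and tight, and Ccne1 rose by 0.47 ± 0.12 (limma adjusted p = 0.011). Ccne2, cyclin E2, differed by 0.22 ± 0.16 (adjusted p = 0.376). E2f1, an activating E2F factor, read 5.70, 6.19 and 5.76 in the arrays labelled differentiated, against 5.89, 5.65 and 5.87 in those labelled undifferentiated. Its groups overlapped, and the difference of 0.08 ± 0.15 (adjusted p = 0.752) turned to -0.08 without differentiated replicate 2. E2f8, an E2F factor that represses, read 5.14, 5.03 and 5.48 in the arrays labelled differentiated, against 4.64, 5.02 and 4.59 in those labelled undifferentiated. Its groups were separate by a narrow margin. Its difference of 0.47 ± 0.17 (adjusted p = 0.0574) passed without differentiated replicate 2 (0.56, adjusted p = 0.0383) or undifferentiated replicate 2 (0.60, adjusted p = 0.0268), with array weights (0.0189) and with dim genes left out (0.0453).

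Fork checkpoint and repair genes rose in 3 of 6, with a median of 0.45. Brca1, which protects stalled forks and repairs breaks, read 5.04, 5.03 and 4.89 in the arrays labelled differentiated, against 4.34, 3.96 and 4.12 in those labelled undifferentiated. Chek1, the kinase that halts the cycle when forks stall, read 5.62, 5.73 and 5.36 in the arrays labelled differentiated, against 4.92, 4.84 and 4.74 in those labelled undifferentiated. In these genes the groups were separate, and Brca1 rose by 0.84 ± 0.15 and Chek1 by 0.73 ± 0.14 (limma adjusted p = 0.00106 and 0.00186). Fancd2, of the cross-link repair pathway, rose by 0.60 ± 0.13 (adjusted p = 0.00381). Fanca, of the same pathway, read 5.30, 5.12 and 5.45 in the arrays labelled differentiated, against 5.13, 5.09 and 5.08 in those labelled undifferentiated. Its groups overlapped, with a difference of 0.19 ± 0.13 (adjusted p = 0.322). Tipin, of the fork protection complex, and Usp1, which removes ubiquitin from FANCD2 and PCNA, differed by 0.28 ± 0.17 and 0.29 ± 0.15 (adjusted p = 0.284 and 0.18). Usp1 passed without differentiated replicate 3 (0.44, adjusted p = 0.0369).

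Replication genes outside the set rose more often than they fell. Of 52 further genes named for the pathway 37 were measured, of which 11 rose and 4 fell (29.7% higher, 10.8% lower), with a median of 0.25. Over all genes 14.7% were called higher and 14.9% lower, so the share of falls was not above that of all genes. The count of rises was 7 without differentiated replicate 1 and 6 without undifferentiated replicate 1. The count of falls was 3 or 4 under every alternative. Ccna2, cyclin A2 of S phase and G2, read 6.55, 6.53 and 6.55 in the arrays labelled differentiated, against 5.16, 4.87 and 5.32 in those labelled undifferentiated. It rose by 1.43 ± 0.13 (limma adjusted p = 1.4e-05). Asf1b, a histone chaperone, rose by 0.88 ± 0.12 and Mms22l, which works at stalled forks, by 1.08 ± 0.16 (adjusted p = 0.000233 and 0.000447). Among the falls, Pole4, a small subunit of polymerase epsilon, fell by 0.51 ± 0.10 (SE), while Pole itself rose. Orc3 and Orc4, core subunits of the origin recognition complex, fell by 0.63 ± 0.12 and 0.59 ± 0.13 (adjusted p = 0.00252 and 0.00438), where Orc1 and Orc6 did not pass. Orc2 and Orc5, of the same complex, did not pass either (-0.21 ± 0.11 and 0.25 ± 0.11, adjusted p = 0.219 and 0.121). In polymerase epsilon 1 subunit rose, Pole4 fell and Pole3 did not pass (0.13 ± 0.27, adjusted p = 0.76). Differences between subunits were not tested.

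The median of the replication genes lay between those of the mitotic and the G1 lists. Of 23 measured mitotic spindle and checkpoint genes 20 rose and 0 fell, with a median of 1.09 and 14 genes over 1. Prc1, of the central spindle, rose by 1.35 ± 0.10, Top2a, the topoisomerase that untangles sister chromatids, by 1.45 ± 0.12, and Kif23, a kinesin of the midbody, by 1.40 ± 0.16 (limma adjusted p = 2.71e-06, 4.01e-06 and 5.02e-05). Of 13 measured G1 cyclins and CDK inhibitors 6 rose and 2 fell (46.2% higher, 15.4% lower), with a median of 0.35. Over all genes 14.7% were called higher and 14.9% lower, so the share of falls in the G1 list was near that of all genes. The 3 rises with the smallest p were 2 inhibitors of the cycle and a G1 kinase: Cdkn2a by 1.28 ± 0.12, Cdkn1a by 1.39 ± 0.16 and Cdk6 by 1.07 ± 0.14 (adjusted p = 1.47e-05, 6.65e-05 and 0.000118). The inhibitors Cdkn1b and Cdkn1c fell by 0.59 ± 0.13 and 0.42 ± 0.12 (adjusted p = 0.00423 and 0.0206), and Cdkn1c missed the threshold without differentiated replicate 2 (0.0656) or 3 (0.0525) or undifferentiated replicate 3 (0.0921). Medians of lists were not tested against each other. The same motif search found E2F letters before 1 of 23 mitotic genes (4.35%) and the CHR letters before 8 (34.8%), against 14 and 4 of the 47 replication genes.

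**Figure D4:**
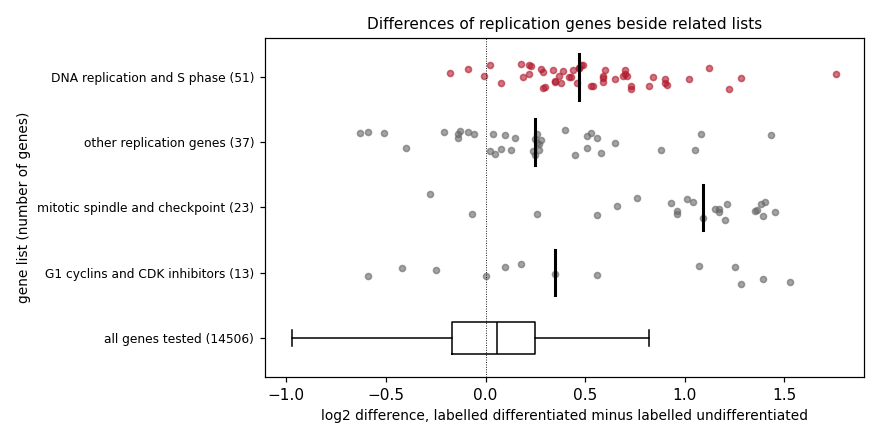
Log2 difference, labelled differentiated minus labelled undifferentiated, of each gene (points, jittered in height) in the replication set and in 3 related lists, with each median as a bar, above all genes tested (box from the lower to the upper quartile with the median, whiskers at the 5th and 95th percentiles). The replication set has its median at 0.47, right of the other replication genes at 0.25 and left of the mitotic genes at 1.09.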

How the data were processed

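Per the labels' protocols, 100 ng of total RNA from each of 6 neurosphere samples went onto Affymetrix arrays. The authors deposited 1 log2 value per probe set and array (29214 probe sets); base 2 was inferred from the range, and the sources used here give no background correction, normalization or software. The platform's table gave 1 symbol to 15310 probe sets, several to 323 and none to 13581. No member was added by gene ID or older symbol.

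One fit of limma 3.58.1 in R 4.3.3 (eBayes with a mean-variance trend, two-sided, Benjamini-Hochberg over 14506 genes, 0.05) took all 6 arrays, grouped by title, without further normalization, and was tested on simulated data. Figures used matplotlib 3.10.9. With 3 arrays a group, their number limits the precision, and the height of dim probe sets over background is unknown.

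Members, lists and tests were chosen with earlier results of these data known. Values by array are given for the 2 members of each step with the smallest p, the one with the smallest change and any called against its step's median; for related lists, the 3 smallest p in each direction. Other genes were given by difference alone, and Pdgfra was named after its value was seen, as were Nefl, Map2 and Prrx1. The alternatives tried were a replicate block, normalization, centring, dim genes, probe set choice, eBayes settings, array weights, the threshold and each array left out.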

Additional observations from a re-analysis of the deposited data

How the results depend on the processing

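The number of replication genes that rose stayed within 1.5 times of 32 under every alternative at the 0.05 threshold (25 to 31 when each array was left out), 0 fell in any of them, and their median was 0.44 to 0.51. At an adjusted p under 0.01 the rises were 18, and those of the other replication genes 6. Leaving out each array gave 6 to 10 rises of the other replication genes. Of the 32 genes called, 21 kept the call under every alternative in which they were tested at 0.05 and 11 lost it in at least 1, while 6 others gained one. The sign of 3 genes near 0 turned: Orc6 with median centring (-0.01) and when single arrays were left out (-0.02 to 0.08), Rfc5 with quantile normalization (0.0024) and in the same way (-0.05 to 0.03), and E2f1 (-0.08 to 0.17). So did that of Tubb3, with quantile normalization (0.04) and without single arrays (-0.07 to 0.12); the cause was not tested. With dim genes left out the chromatin median was 0.80, against 0.37, since Slbp was among the genes dropped. With the replicate number as a block, 31 members and 4430 genes of the whole table were called, against 32 and 4286, Prim1 passed (adjusted p = 0.0235), and Fen1 (0.0539) and Rfc3 (0.0554) missed the threshold. Same-numbered arrays had deviations that correlated at 0.12, 0.12 and 0.00, and arrays of different number at -0.15 to 0.06. Such small values over all genes cannot show whether the numbers mark pairs. The main fit did not take the number as a pairing. The height of the signal over background is not known, which limits the dimmest members (Gins1 and Slbp) most.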

Other observations

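Within each group, the arrays were not alike across the replication genes. Among the arrays labelled differentiated, replicate 2 held the highest value for 31 of the 51 genes and replicates 1 and 3 for 10 each, where replicate 2 was the highest for 37.7% of all genes. Among those labelled undifferentiated, replicate 2 held the lowest value for 26 of the 51, where it was the lowest for 39.4% of all genes. The mean log2 value over the 51 genes was 6.01, 6.13 and 5.97 in the arrays labelled differentiated and 5.53, 5.45 and 5.55 in those labelled undifferentiated, so the groups did not overlap. The mitotic list had means of 6.17, 6.44 and 6.17 in the arrays labelled differentiated and 5.39, 5.17 and 5.33 in those labelled undifferentiated. In that list too, replicate 2 was the highest of the former and the lowest of the latter. The G1 list was lowest in replicate 2 of both groups (7.93 and 7.38). The macrophage marker list had its highest mean in differentiated replicate 2 as well, at 8.04, against 7.39 and 7.33 in replicates 1 and 3. So did the glomus cell (7.85) and smooth muscle (6.37) lists among the arrays labelled differentiated. The glia (6.58) and progenitor (9.84) lists had their lowest mean of those arrays there. The part of these cell types in the result was not tested. Without differentiated replicate 2, 27 members rose, with a median of 0.45.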
